A study of Mus musculus with 20 samples.

Results

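The regions described here are the 818 strong accessible sites of wild-type (WT) cells that at least 1 of 9 CTCF mutants lacked. They were taken from 34343 strong WT sites, the top 20% of the 171719 peaks in the WT list by the authors' fold value, and a site was called missing from a mutant when no peak of that mutant's list overlapped it by 1 bp. The other 33525 strong sites were found in all 9 mutant lists, so 2.38% of strong sites were missing somewhere. The sites were thus chosen by their measured WT fold and by the mutant calls. Their strength and the lists that lack them are therefore given as description, without a test. Location and promoter sequence took no part in the choice. A wide WT peak meets the 1 bp rule more easily than a narrow one, so width is also given as description.

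CTCF binds DNA through a row of zinc fingers and, together with cohesin, forms the anchors of chromatin loops and domain borders. Where it binds, it keeps the neighbouring DNA free of nucleosomes, and such sites appear as accessible regions away from promoters as well as at them. Omni-ATAC maps accessible DNA with a transposase that inserts sequencing adapters into open chromatin. Promoters of active genes and enhancers are accessible for other reasons, so a strong accessible site is not by itself a CTCF site.

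The cells were mouse embryonic stem cells of the line E14Tg2a, strain 129/Ola, grown without feeders in serum with leukemia inhibitory factor, CHIR99021 and PD0325901. In every genotype, WT included, endogenous CTCF carried an auxin-inducible degron and was removed with 500 µM indole-3-acetic acid while 1 µg/ml doxycycline induced a stable Ctcf transgene, both for 2 days. The mutant transgenes were R339Q, R342C, S354F, K365T, R377C, R377H, Q418R, R448Q and H455R, and the reference was the WT transgene. Each genotype was 1 modified cell line with 2 replicates, and the labels do not say whether the replicates were separate cultures or whether a line was 1 clone. The authors combined both replicates in 1 peak list, so the spread between replicates is unknown and genotypes could not be tested against each other. From general knowledge of the protein and not from the labels, R339Q shares the third zinc finger with R342C, and S354F the fourth with K365T. R377C and R377H change the same residue of the linker that follows, Q418R lies in the sixth finger, and R448Q shares the seventh with H455R.

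The mutant lists held 121032 peaks (R339Q) to 159957 peaks (H455R), all fewer than the 171719 of WT. The 5 embryonic stem cell genes (Pou5f1, Nanog, Sox2, Esrrb, Zfp42) had a peak within 1 kb of an annotated end in all 10 lists. Of 7 fibroblast genes, 3 to 5 had one in each list, while Lum and Postn had none in any list. Read totals were not used here, so differences in depth between lists cannot be told apart from differences between genotypes. All coordinates are 1-based positions of build mm10.

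Only 22 of the 818 sites lay at the end of a protein-coding gene, and in just 16 annotated promoter windows (250 bases before to 50 bases after a transcription start) did a missing site reach into the window, 9 of them of protein-coding genes. The sequences of 6 of these windows are shown because they set the CG-rich promoters of this group beside CG-poor ones. Trmt10c encodes a subunit of mitochondrial RNase P and Lsm14b an RNA-binding protein, and their sites were the strongest gene-end members. Btla encodes an inhibitory receptor of lymphocytes, Rxfp2 the receptor for the testis hormone INSL3, Zcchc12 a zinc knuckle protein, and Xlr3c belongs to a family of closely similar X-linked genes. The sequences come from RefSeq on GRCm38.p6, are written 5′ to 3′ on the strand of the gene, and have in capitals the bases that lie inside the WT peak.
Trmt10c: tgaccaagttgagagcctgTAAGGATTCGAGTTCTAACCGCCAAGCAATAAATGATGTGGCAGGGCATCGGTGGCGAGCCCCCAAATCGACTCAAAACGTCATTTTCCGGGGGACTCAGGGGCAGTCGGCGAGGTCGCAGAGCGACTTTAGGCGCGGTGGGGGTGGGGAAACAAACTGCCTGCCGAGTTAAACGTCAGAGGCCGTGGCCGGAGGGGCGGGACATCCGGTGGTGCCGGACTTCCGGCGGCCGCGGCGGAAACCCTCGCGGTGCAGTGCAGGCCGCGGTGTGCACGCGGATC
Lsm14b: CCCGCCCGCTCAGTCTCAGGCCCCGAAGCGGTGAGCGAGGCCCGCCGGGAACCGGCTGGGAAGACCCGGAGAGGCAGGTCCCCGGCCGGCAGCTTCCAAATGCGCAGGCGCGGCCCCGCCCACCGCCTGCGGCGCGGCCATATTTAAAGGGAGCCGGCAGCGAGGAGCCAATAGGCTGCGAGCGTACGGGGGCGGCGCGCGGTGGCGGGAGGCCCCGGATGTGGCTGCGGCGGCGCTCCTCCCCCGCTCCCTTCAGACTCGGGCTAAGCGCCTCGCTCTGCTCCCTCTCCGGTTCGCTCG
Btla: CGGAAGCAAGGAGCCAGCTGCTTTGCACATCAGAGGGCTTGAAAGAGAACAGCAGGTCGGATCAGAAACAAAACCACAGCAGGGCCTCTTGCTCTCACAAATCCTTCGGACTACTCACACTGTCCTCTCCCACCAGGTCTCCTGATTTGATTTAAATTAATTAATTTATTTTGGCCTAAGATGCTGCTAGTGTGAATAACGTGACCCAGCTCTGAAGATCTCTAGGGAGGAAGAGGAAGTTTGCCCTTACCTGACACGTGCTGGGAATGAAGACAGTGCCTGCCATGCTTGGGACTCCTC
Rxfp2: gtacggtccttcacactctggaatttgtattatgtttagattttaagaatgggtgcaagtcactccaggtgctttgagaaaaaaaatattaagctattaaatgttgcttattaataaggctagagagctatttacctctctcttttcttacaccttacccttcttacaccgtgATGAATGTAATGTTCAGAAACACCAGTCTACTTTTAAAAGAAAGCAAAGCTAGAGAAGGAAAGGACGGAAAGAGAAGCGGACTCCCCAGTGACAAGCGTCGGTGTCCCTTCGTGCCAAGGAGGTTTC
Zcchc12: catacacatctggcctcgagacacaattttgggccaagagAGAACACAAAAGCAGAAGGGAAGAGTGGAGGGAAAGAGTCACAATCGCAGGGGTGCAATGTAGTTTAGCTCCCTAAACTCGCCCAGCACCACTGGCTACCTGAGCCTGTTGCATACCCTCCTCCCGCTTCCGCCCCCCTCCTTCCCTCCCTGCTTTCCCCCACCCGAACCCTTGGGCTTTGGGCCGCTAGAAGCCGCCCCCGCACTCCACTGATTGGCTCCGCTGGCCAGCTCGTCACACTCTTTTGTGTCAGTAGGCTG
Xlr3c: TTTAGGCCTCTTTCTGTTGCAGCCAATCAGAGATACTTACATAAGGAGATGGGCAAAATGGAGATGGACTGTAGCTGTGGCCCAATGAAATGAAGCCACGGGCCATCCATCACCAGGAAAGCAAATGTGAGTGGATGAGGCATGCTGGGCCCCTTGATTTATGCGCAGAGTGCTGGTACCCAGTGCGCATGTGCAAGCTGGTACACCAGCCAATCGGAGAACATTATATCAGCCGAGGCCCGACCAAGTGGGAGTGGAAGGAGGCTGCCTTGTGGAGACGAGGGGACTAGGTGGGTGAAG

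The Trmt10c window, chr16:56037737-56038036 on the minus strand, held 31 CG dinucleotides, and the Lsm14b window, chr2:180024737-180025036 on the plus strand, held 40. The other printed windows held far fewer. Btla, chr16:45224087-45224386 on the plus strand, had 5. Rxfp2, chr5:150018425-150018724, and Xlr3c, chrX:73265341-73265640 on the minus strand, had 7 each, and Zcchc12, chrX:36195654-36195953, had 11. Over the 16 windows the median was 6 CG dinucleotides and 50.2% G and C, against 21 and 61.3% over the 9613 windows reached by a strong site that all mutants kept, and 7 and 52.7% over all 32817 windows. These sets were not matched for gene type or WT fold: 9 of the 16 windows were of protein-coding genes, against 8202 of the 9613. The Zcchc12 window and that of the noncoding gene Gm42406 overlap under the same site, and both are counted. Apart from Trmt10c and Lsm14b, the 16 windows held at most 15 CG dinucleotides. The CTCF core consensus, searched on both strands with at most 1 mismatch, was in 0 of the 16 windows. This allows a share of up to 18.8% by an approximate upper limit, not by an exact interval. It was in 5.55% of windows reached by kept strong sites and in 4.33% of all windows of the same length. No genome of this build was used here, so the motif was not searched in the peaks outside these windows.

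R339Q lacked the most strong WT sites and R377C the fewest. R339Q lacked 331 of 34343 strong sites, or 0.964% (exact 95% binomial interval 0.863 to 1.07%, counting error only, as for all intervals here). R448Q lacked 306, or 0.891% (0.794 to 0.996%). Q418R lacked 140 (0.408%), K365T 104 (0.303%), R377H 95 (0.277%), R342C 76 (0.221%), S354F 74 (0.215%), H455R 41 (0.119%) and R377C 39 (0.114%). Mutants of the same part of the protein lacked unequal numbers, without a test. In the seventh finger R448Q lacked 306 sites and H455R 41, in the third finger R339Q lacked 331 and R342C 76, and at the linker residue the histidine form lacked 95 and the cysteine form 39. Their list sizes differed too: 145504 peaks in R448Q and 159957 in H455R, 121032 in R339Q and 141104 in R342C, and 146318 in R377H and 150933 in R377C. In the fourth finger the numbers were closer, 104 in K365T and 74 in S354F, with lists of 139580 and 140516 peaks. With every list, WT included, limited to the size of the shortest, 277 of 24206 strong sites were missing somewhere, R448Q lacked 132 and R339Q 100, so R448Q then lacked the most.

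**Figure D1:**
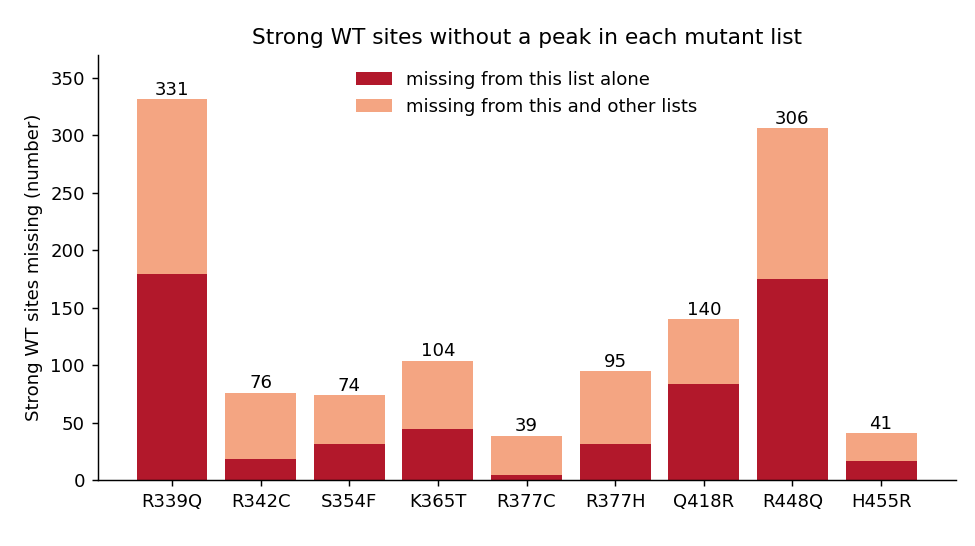
Number of strong WT sites (vertical axis) without an overlapping peak in each of the 9 mutant lists (horizontal axis), split into sites missing from that list alone (dark) and sites missing from other lists too (light). R339Q (331) and R448Q (306) stand above the other lists, which lack 39 to 140.

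Most sites were missing from a single list. Of the 818, 588 (71.9%) were missing from 1 list, 134 from 2, 63 from 3, 15 from 4, 11 from 5, 4 from 6, 2 from 7 and 1 from 8, and 0 from all 9. R339Q alone lacked 179, R448Q alone 175 and Q418R alone 84. K365T alone lacked 45, R377H and S354F 32 each, R342C 19, H455R 17 and R377C 5. As a share of each mutant's own missing sites, those missing from it alone were 84 of 140 in Q418R and made 57.2% in R448Q and 54.1% in R339Q, against 12.8% in R377C. The sets missing from exactly 2 lists were led by R339Q with R448Q (30 sites), K365T with R448Q (18) and R339Q with Q418R (11). All lists are set against the same WT list, so these counts carry no measure of agreement between mutants.

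The sites stood at the weak end of the strong class. Their WT fold, the authors' enrichment over expected coverage, ran from 8.42 to 17.96 with a median of 9.34, where the strong class as a whole reached 33.1. With the strong class cut into 10 bins of equal size, 234 of 3435 sites in the weakest bin were missing somewhere (6.81%), in the second weakest 212 of 3434 (6.17%), and in the strongest 2 of 3434 (0.0582%). The class ended at a fold of 8.40. The 3 weakest members were a site near Tle3, chr9:61511289-61511854 (fold 8.43), one in Rad51b, chr12:79681598-79681940 (8.42), and one in Tmem132d, chr5:128244137-128244960 (8.42), and only R448Q lacked them. The strongest missing sites just below the limit were in Ucma, chr2:4977715-4978592 (8.40, missing from R448Q), near Ly86, chr13:37500753-37501303 (8.40, missing from R339Q), and in Fam189a1, chr7:65079928-65080345 (8.38, missing from 4 lists).

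Where a mutant did hold a site that another mutant lacked, the site usually ranked lower than in WT. Strength within a list was expressed as the percentile of the fold among all peaks of that list. This scale does not remove differences in list size or depth: a list with fewer weak peaks gives the same peak a lower percentile. WT had the longest list, so every comparison of a mutant percentile with WT carries this limit. The median percentile of held members was 50.3 in R339Q, 58.0 in R448Q, 58.6 in R377H, 59.0 in R342C, 62.4 in S354F, 63.2 in K365T, 65.0 in Q418R, 65.9 in R377C and 71.2 in H455R. Strong sites found in all 9 lists, weighted to the same WT fold, had medians of 77.8 to 82.9 in these lists. For 567 of the 818 sites (69.3%) the WT percentile was above that of every list holding the site, against 27.3% of kept sites at equal WT fold. These shares are not like for like. A member had to exceed only the lists that held it, a kept site all 9. Where several peaks of a list overlapped a site, the strongest was taken for members. For kept sites a single peak was taken, which need not be the strongest. The members were chosen for a high WT value and a missing mutant peak, so these ranks are a description.

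**Figure D2:**
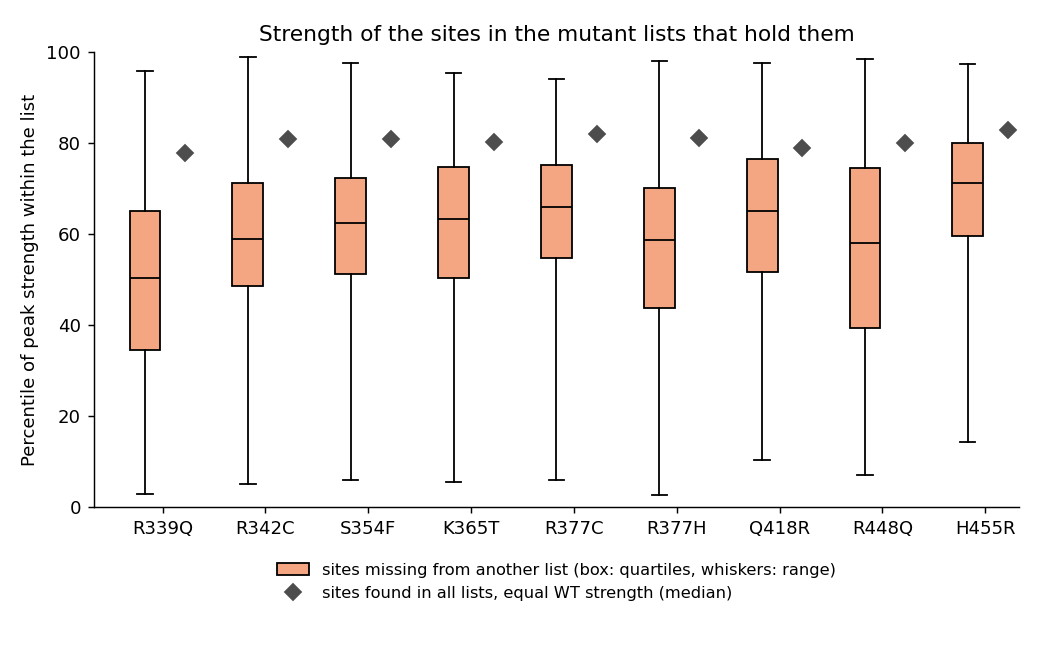
Percentile of peak fold within each mutant list (vertical axis) for strong WT sites that another list lacks but this list holds (boxes: quartiles with the median, whiskers: range) and the median for sites found in all 9 lists at equal WT fold (diamonds). Box medians run from 50.3 in R339Q to 71.2 in H455R, below the diamonds at 77.8 to 82.9.

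Few missing sites had a mutant peak close by. Of the 1206 pairs of a site and a list lacking it, 56 had a peak of that list within 500 bp. The median distance to the nearest peak of the list was 7.59 kb.

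The site missing from most lists was chr3:16260347-16260677, an intergenic peak of 331 bp that lay 43.3 kb from Ythdf3, a gene for a reader of methylated RNA. Its WT fold was 8.77 (percentile 81.6), 8 lists lacked it, and only Q418R held it, at percentile 41.8. An intergenic site at chr5:12722248-12722761, 133 kb from Sema3d, which encodes a secreted guidance protein, was missing from 7 lists. S354F held it at percentile 8.78 and H455R at 27.0, against 83.9 in WT. In the remaining holders of these sites the peak was thus well below its WT rank.

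The third site missing from 7 lists or more was chr7:18327373-18327714, 18.0 kb from Psg18, a gene of the pregnancy-specific glycoprotein family. It had a percentile of 70.5 in Q418R and 31.2 in H455R, against 81.9 in WT, and no peak in the other 7 mutants. The next strong site, chr7:18327990-18328332, was missing from R339Q, R377C and R448Q, and its percentile ran from 31.4 to 91.2 in the 6 mutants that held it. The third, chr7:18335395-18335808, was missing from R339Q, K365T, R377C and R448Q. These 3 sites were all the strong sites in a span of 8.44 kb, and R339Q, R377C and R448Q lacked all of them while Q418R and H455R held all of them.

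A pair of sites 0.923 kb across lay in Nlrp9b, a gene of the NLR family on the same chromosome. The site at chr7:19997316-19997709 was missing from 6 lists and had percentiles of 32.9 in R342C, 69.9 in Q418R and 42.4 in H455R, against 83.9 in WT. Its neighbour at chr7:19996787-19997120 was missing from K365T and R448Q. Psg and Nlrp9 genes belong to families with similar copies, as do Magea4 and Xlr3c, and the sources used here do not give how reads that match several places were treated.

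Other sites missing from 6 lists were intergenic. The one at chrX:72224307-72224821 lay 1.34 kb from Magea4, a gene expressed in the germ line, and had percentiles of 51.3 in S354F, 69.9 in Q418R and 18.4 in H455R, against 82.8 in WT. The one at chr12:58802459-58802765 lay 156 kb from Sec23a, which encodes a coat protein of secretory vesicles. It differed from the preceding sites in its holders: R448Q had it at percentile 83.3, K365T at 74.7 and R342C at 48.5, against 82.2 in WT. The one at chr13:78255566-78255963 lay 56.7 kb from Nr2f1, a nuclear receptor gene, with percentiles of 76.5 in Q418R, 32.8 in S354F and 19.7 in R448Q, against 80.3 in WT. The strongest site missing from 5 lists, chr17:9610386-9610755, lay 55.7 kb from Pabpc6 and had percentiles from 50.3 to 81.9 in 4 mutants, against 90.0 in WT.

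**Figure D3:**
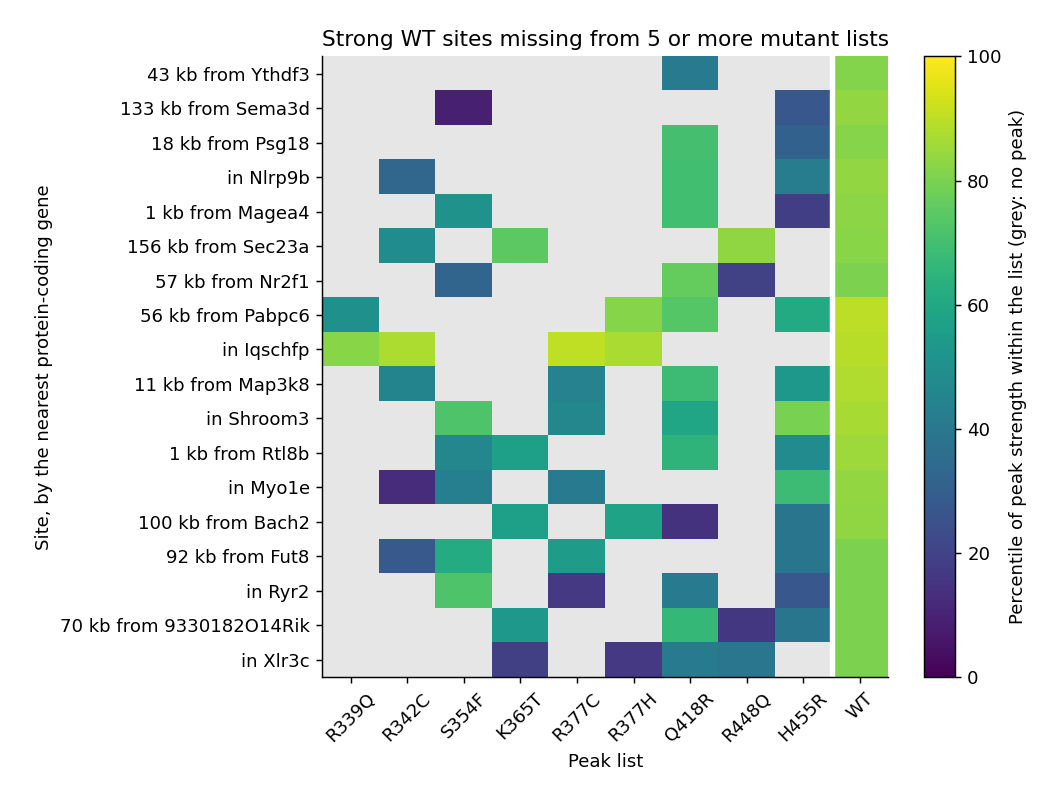
Percentile of peak fold within each list (colour) for the 18 sites missing from 5 or more mutant lists (rows, named by the gene they lie in or the nearest protein-coding gene), with the 9 mutants to the left and WT to the right. Grey cells have no peak, and the WT column lies above 80 in every row.

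Some of the strongest sites were missing from R448Q alone. One was chr6:93305090-93305738, 361 kb from Adamts9, a metalloprotease gene, which had percentiles of 50.3 to 94.1 (median 73.6) in the other 8 mutants and 98.2 in WT. R448Q alone also lacked chr12:35770260-35770896, 155 kb from Agr3, which had 43.4 to 94.3 (median 71.6) in the other 8 mutants and 96.7 in WT. In both cases H455R, the other substitution in the seventh finger, had the highest percentile among the mutants.

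R339Q alone lacked a site in Dkk2, a gene for a secreted modulator of WNT signalling, at chr3:132154868-132155519. Its percentile was 17.6 to 88.8 (median 63.1) in the other 8 mutants, against 96.5 in WT, and R342C, the other substitution in the third finger, had the lowest value. The next strongest missing from R339Q alone were in Stard13 at chr5:151141539-151142206 (63.7 to 86.3 in the other mutants, 95.6 in WT), and at chr9:52809240-52809671, 127 kb from AI593442 (49.0 to 83.6 in the other mutants, 94.8 in WT).

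R342C alone lacked chr4:28658749-28659158, 154 kb from Epha7, an ephrin receptor gene. Its percentile in the other 8 mutants ran from 16.5 to 92.2, against 92.5 in WT. It alone also lacked chr4:89505365-89505875, 182 kb from Dmrta1 (24.6 to 68.7 in the other mutants, 90.5 in WT). For Q418R the examples were a site in Lyn, a gene for a Src family kinase, at chr4:3734570-3734883 (47.0 to 84.1 in the other mutants, 91.1 in WT), and one in Frmd4b at chr6:97478914-97479899 (73.9 to 85.9, with 91.1 in WT). The Frmd4b peak was wide, at 986 bp. It lay on chromosome 6, which held a smaller share of the peaks in Q418R, but outside the shifted segments of that chromosome described below.

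K365T alone lacked a site in Zdhhc14, a palmitoyltransferase gene, at chr17:5562274-5562667, with percentiles of 43.1 to 80.1 in the other mutants and 90.0 in WT, and one in Flacc1 at chr1:58690016-58690619 (28.7 to 81.4, with 89.8 in WT). R377H alone lacked chr1:130524633-130525181, 21.9 kb from Zp3r (19.3 to 89.4, with 93.3 in WT), and a site in the formin gene Diaph2 at chrX:130256607-130257223 (9.73 to 80.7, with 92.8 in WT). R377C alone lacked chr4:4716267-4716605, 45.9 kb from Bpnt2 (24.2 to 82.5, with 88.7 in WT), and chr19:34270327-34270770, 14.7 kb from the smooth muscle actin gene Acta2 (53.4 to 87.3, with 83.3 in WT). Of the sites missing from S354F alone, one at chr5:149911943-149912286, 106 kb from Rxfp2, held percentiles of 63.7 to 90.9 in the other mutants, against 87.9 in WT, and one in Rap1gap2 at chr11:74548784-74549277 held 84.0 to 93.8, against 90.9 in WT. H455R alone lacked chr6:23147134-23147648, 14.1 kb from Aass, a lysine degradation gene, at which the other mutants had low to middling ranks (5.56 to 63.1, median 25.5, against 89.1 in WT). It alone also lacked chr7:24817310-24817870, 32.7 kb from Ceacam10, which reached its highest percentile, 98.4, in R448Q (lowest 41.8, with 89.1 in WT).

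Missing sites were rare at gene ends. Of the 818, 22 lay within 1 kb of either end of a protein-coding gene (2.69%, exact 95% interval 1.69 to 4.04%), against 20.04% of kept strong sites at equal WT fold. Another 420 (51.3%) lay elsewhere in a gene, against 41.8%, and 376 (46.0%) were intergenic, against 38.1%. In each mutant, 1.43% (Q418R) to 7.69% (R377C) of missing sites were at gene ends, against 18.7% to 19.8% of the sites that mutant kept at equal fold. The difference averaged −15.5 percentage points (SD 2.19 over 9 mutants) and was below 0 in 9 of 9, with an adjusted p of 0.0039 in a two-sided exact sign-flip permutation test over the mutants, the smallest p that 9 mutants allow. The 9 values share the WT list and many sites, so the test describes these mutants and is no replicate test.

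Under the 1 bp rule the missing sites were narrow. Their median width was 442.5 bp, with quartiles of 360 and 561 bp, against 694 bp for kept sites at equal WT fold, and 41.1% were at most 400 bp wide, against 10.6%. By mutant, the median of missing sites was lowest in H455R and highest in R448Q, at 491 bp, against 670 to 686 bp for the sites each mutant kept. The log2 width differed by −0.75 on average (SD 0.125 over 9 mutants). This difference changed with the overlap rule, and the cause was not tested. When at least 50% of the WT peak had to be covered, 3013 sites were missing and the log2 difference was 0.036, while the gene-end difference was −15.7 points.

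**Figure D4:**
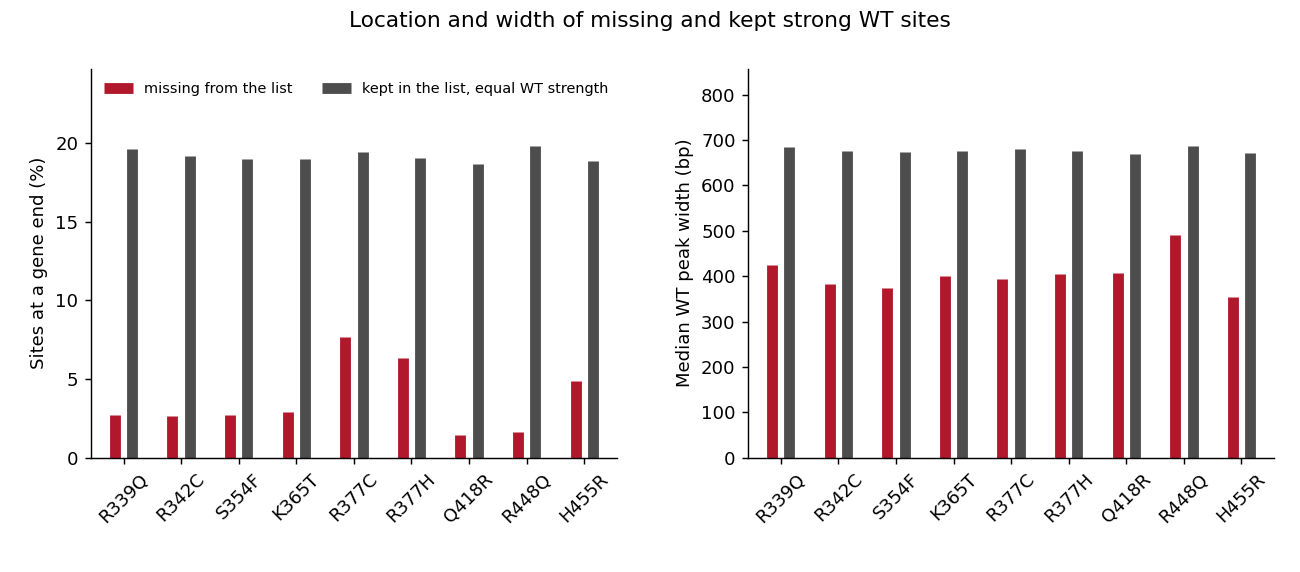
Percent of strong WT sites within 1 kb of a gene end (left panel) and median WT peak width in bp (right panel) for sites missing from each mutant list (red) and sites kept in it, weighted to equal WT fold (grey). In every list the red bar is the lower one, at 1.43% to 7.69% against 18.7% to 19.8% at gene ends.

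The missing sites lay farther from gene ends and from other peaks than kept sites did, although 51.3% of them lay in gene bodies. Their median distance to the nearest end of a protein-coding gene was 33.8 kb, against 14.8 kb for kept sites at equal fold. Their median distance to the nearest other WT peak was 4.63 kb, against 2.57 kb.

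The strongest gene-end members were those at Trmt10c and Lsm14b. The Trmt10c site, chr16:56037380-56038017 with a WT fold of 16.25, was missing from R339Q, K365T and R377C, and its percentile was 95.7 to 98.8 in the other 6 mutants and 97.2 in WT. The Lsm14b site, chr2:180024311-180025263 with a fold of 15.2, was missing from S354F, R377C and R377H, and its percentile was 93.6 to 97.3 in the other 6 mutants and 96.2 in WT. Both were at full strength wherever they were listed. In all lists lacking them, the deposited peak numbers, which run in genome order, skip a number at that position.

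The gene-end sites with CG-poor windows at Btla, Rxfp2 and Xlr3c ranked lower in the mutants that held them. The Btla site, chr16:45223976-45224624, was missing from R448Q, with percentiles of 26.7 to 90.9 (median 54.2) in the other mutants and 92.8 in WT. The Rxfp2 site, chr5:150018598-150019002, was missing from R377H, with 45.3 to 73.4 in the other mutants and 85.0 in WT. The Xlr3c site, chrX:73265276-73265945, was missing from R339Q, R342C, S354F, R377C and H455R, and had 16.8 to 41.8 in the other 4 mutants, against 80.3 in WT. The remaining gene-end sites named here reached no counted promoter window. Gspt1, the gene of a translation termination factor, had a site 580 bp from its end at chr16:11216820-11217330 that R339Q alone lacked, with 65.0 to 83.2 in the other mutants and 87.6 in WT. R339Q and K365T lacked a site at Cklf, chr8:104265500-104266025 (47.1 to 84.8 in the other mutants, 86.3 in WT), R377H one near LOC115488637, chr16:14634914-14635299 (24.6 to 67.4, with 86.3 in WT), and R339Q one at Arl2bp, chr8:94674394-94674783 (56.7 to 73.9, with 84.7 in WT). R377H and R448Q lacked one at Zfp386, chr12:116061727-116062695 (13.8 to 79.1, with 84.5 in WT), and R448Q one at Tspan12, chr6:21879462-21879966 (32.9 to 96.0, with 83.9 in WT).

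Most missing sites were solitary. At a spacing of at most 100 kb, 722 of the 818 sites had no other member beside them, 80 formed 40 pairs, 12 formed 4 chains of 3, and 4 formed 1 chain. The share in chains of 3 or more was 1.96%, and it was 0.367% at 50 kb and 5.38% at 250 kb. The chain of 4 spanned chr5:150738095-150926986, from Pds5b, which encodes a cohesin regulator, to Kl. Its sites were missing from R339Q, from R377H, from Q418R and R448Q, and from K365T and R448Q, so 1 mutant did not account for it. The span held 9 strong sites in all, and the other 5 were found in every list.

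The chain in Vps13d fell mostly to R448Q. At chr4:145022061-145169622, R448Q lacked 3 of 8 strong sites, and K365T lacked one of these too. The chain at the trace amine receptor genes Taar7d, Taar8a and Taar9, chr10:24015587-24107655, was split between R339Q, R448Q and R377H. Consecutive strong sites missing from the same mutant were few: R448Q had 10 such runs with 21 sites, R339Q 4 with 9, and Q418R and H455R had 0. The longest runs were the 3 sites near Psg18 in R339Q, R377C and R448Q. The longest in other mutants were pairs: chr4:28564253-28659158, with Epha7 as the nearest gene, in R342C, chr12:109474648-109539497 at Dlk1 and Meg3 in S354F, the Nlrp9b pair in K365T and chr8:9482602-9501099, in Fam155a, in R377H.

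Members lay inside 410 protein-coding genes, and 30 of these held 2 or more. Rad51b, a homologous recombination gene, had 3 missing of 17 strong sites, Stard13 3 of 9 and Vps13d 3 of 12. In Rad51b, 1 was missing from Q418R and the others from R448Q. In Stard13 the lists lacking them differed between the sites.

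The weaker peaks around a missing site were absent somewhat more often too. Within 50 kb of the sites that a mutant lacked, 28.1% (H455R) to 49.9% (R339Q) of the weaker WT peaks were missing from that mutant as well. Around members that it held, 26.2% to 46.8% were missing. The difference ran from 1.76 to 9.27 points with a mean of 5.13 (SD 2.95 over 9 mutants). In R377C it was 37.8% against 28.6%, in K365T 46.8% against 38.8% and in R448Q 46.3% against 39.0%. Within 10 kb the mean difference was 10.0 points. It was −0.90 points for the top 10% of WT peaks, where 90 of 17171 sites were missing. These are the same lists that chose the sites, so no test was made.

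Missing sites were unevenly spread over chromosomes in more than 1 list. R448Q lacked 0.243% of the strong sites of chromosome 8 and 1.80% of those of chromosome 14. R339Q lacked 0.474% on chromosome 17 and 1.62% on chromosome 12. Q418R lacked the most sites on chromosomes 6 and 5. Of its 140, 35 (25.0%) lay on chromosome 6 and 20 (14.3%) on chromosome 5, which hold 6.75% and 6.99% of strong sites. Q418R also had fewer peaks there when strong and weak ones were counted: 5.52% of its peaks lay on chromosome 6, against a median of 6.82% in the other lists, and 6.90% on chromosome 5, against 7.19%. Peaks were also counted in 5 Mb bins, each as a share of its own list. The Q418R share was lower than in the other lists over the first 40 Mb of chromosome 5 and over 3 stretches of chromosome 6. In these segments Q418R lacked 38 of 2288 strong sites (1.66%), against 0.318% elsewhere. K365T had lower segments on chromosomes 12 and 13, in which it lacked 4 of 281 strong sites (1.42%), against 0.294% elsewhere. H455R had a lower segment on chromosome 17, in which it lacked 0 of 160 strong sites, against 0.120% elsewhere. In the higher segments of R448Q it lacked 0.384%, against 0.951% elsewhere. The WT list, which sets the strong class, was itself lower over 70 to 95 Mb of chromosome 17, with 214 strong sites and 0 members there. Without all segments shifted in any list, WT included, 643 of 26361 strong sites were missing somewhere, and Q418R lacked 88 of the 26361. With these segments kept, the counts were 818 and 140 of 34343 strong sites. A change in DNA copy number and a change in accessibility over such a segment cannot be told apart in these lists.

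**Figure D5:**
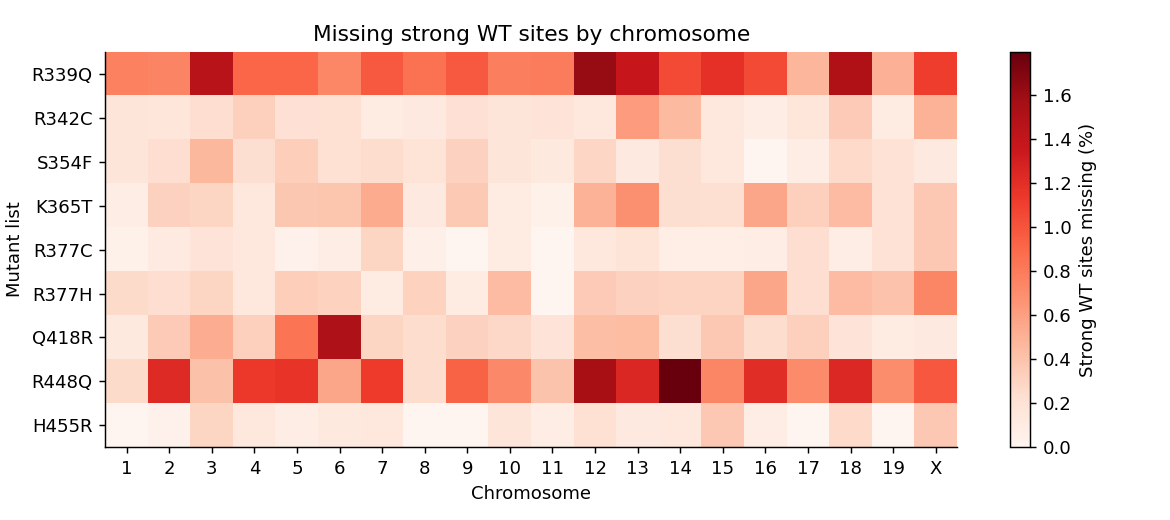
Percent of the strong WT sites of each chromosome (horizontal axis) missing from each mutant list (vertical axis), as colour. Q418R reaches 1.51% on chromosome 6 and 0.833% on chromosome 5 and stays below these values on the other chromosomes. R448Q reaches 1.80% on chromosome 14 and R339Q 1.62% on chromosome 12.

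Missing sites near genes of stem cell identity and of early lineages were counted beside those near all genes. Among all protein-coding genes with a strong site in or within 50 kb of them, 1130 of 18136 (6.23%) had a missing one. For the naive pluripotency list it was 1 of 19, Dppa4, with a site 31.04 kb away that R339Q lacked. For the formative and primed list it was 2 of 8: Dnmt3a, a DNA methyltransferase gene, with a site 33.7 kb away that R448Q lacked, and Lef1, a WNT effector, with a site 16.2 kb away that R339Q and R377C lacked. For primitive endoderm it was 2 of 7, the endocytic adaptor gene Dab2 (R339Q) and Gata6 (R448Q). For WNT signalling it was 2 of 14, Dkk2 and Lef1. None was found at 11 mesoderm, 10 neural, 7 trophoblast, 15 TGF-beta and BMP, 12 FGF and ERK or 42 protocadherin genes. The lists are small, so a share above or below 6.23% rests on 1 or 2 genes.

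Of 11 genes for CTCF and cohesin, Pds5b was the 1 with missing sites nearby. Of 19 imprinted genes, 3 had one: Dlk1, with a site 11.3 kb away that R339Q, S354F and R448Q lacked, Meg3 in the same locus, with a site 1.50 kb away that S354F lacked, and Plagl1, with a site 38.1 kb away that R339Q lacked. In the Hox list, 3 of 39 genes shared a single site at chr11:96234952-96235463 that Q418R lacked. Olfactory receptor genes had 14 of 381 (3.67%), from 4 sites only, one of which, at chr2:111519560-111519919, was missing from R342C, K365T, R377C and R448Q. The others were chr7:108305183-108305825, missing from S354F, chr7:108909320-108910347, missing from R339Q and R448Q, and chr17:33305138-33305439, missing from R339Q and Q418R.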

How the data were processed

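The tools listed in the submitters' processing notes are Trim Galore, Bowtie2, MACS2 and deepTools, with build mm10 but no versions, and the deposited lists were read as MACS2 peaks. Duplicate handling, adapter shifting, the calling threshold and how replicates were merged are not given in the sources used. For each of 10 genotypes the authors deposited 1 list, with both replicates in it. The deposited value per peak was read, from its range and steps, as a fold enrichment, that is the ratio of observed over expected coverage, and is the authors' own. It served only to rank peaks within a list. Per the labels, 50000 cells entered each reaction and about 50 M read pairs of 150 bp were planned per sample. Intervals cover counting error over peaks only.

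Overlaps, distances and medians were computed with Python 3.11.15, numpy 2.4.6, pandas 2.3.3 and scipy 1.17.1, and the code was tested on made-up lists with known missing peaks. Gene positions and promoter windows came from RefSeq tables of GRCm38.p6, the assembly of mm10, with 21887 protein-coding genes. The gene table gives gene ends without strand or exons, so exonic and intronic sites were not separated. Kept sites were weighted to the WT fold of the missing ones over 10 bins of strength. For gene-end share and log2 width, the 9 differences were tested by all 512 sign flips, with Benjamini-Hochberg adjustment over 2 tests. The width test is not used, since the overlap rule favours keeping wide peaks. Weaker neighbours were the lower 80% of WT peaks. A shifted segment was a run of at least 3 bins of 5 Mb, each holding a median of at least 50 peaks. In each bin the list's share of its own peaks differed by over 0.2 (log2), in the same direction, from the other lists' median share. Named sites were the 8 missing from most lists, the 5 strongest, the next 2 below the strongest site missing from each mutant alone, the 10 strongest at gene ends, the 6 longest chains, the longest run per mutant, members near listed genes, and 3 on each side of the strength limit. Not every site that this rule selects is reported here. Sites quoted beyond this rule were chosen after their values were seen. The members, gene lists and comparisons were chosen with earlier results of these data known. The planned motif share of peaks was not run, since no genome was used here.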

Additional observations from a re-analysis of the deposited data

Results flagged for a closer look

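The deposited peak numbers, which no comparison above uses, run in genome order within each list, and some numbers have no peak. At 25 of the 1206 pairs of a missing site and a list, or 2.07%, the numbers of that list skip between the 2 peaks flanking the site. Over all intervals between neighbouring peaks of the 9 mutant lists the share was 0.444%. The intervals were not matched for length, and a missing site falls in a long interval more readily, so the 2 shares are not like for like. The 25 pairs belong to 14 sites, and at all 14 the numbers skip in every list that lacks the site. They include the Trmt10c and Lsm14b promoters, the Rap1gap2 site missing from S354F, and a site in Iqschfp, chr3:68525108-68526158, which S354F, K365T, Q418R, R448Q and H455R lacked and the other 4 mutants held at percentiles of 82.2 to 90.6, against 89.4 in WT. Whether a peak was called at these positions and taken out of the list later was not tested.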

How the results depend on the processing

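Of 109 recomputed values, 67 kept their direction and size or call. With at least 50% of the WT peak covered, 3013 sites were missing: 1333 from R339Q, 508 R342C, 349 S354F, 650 K365T, 299 R377C, 549 R377H, 755 Q418R, 970 R448Q and 308 H455R, within 50 kb of 4053 protein-coding genes, against 1130, with 10.1% in chains and a log2 width difference of 0.036, the reverse of −0.75. The cause was not tested. Of the 17171 sites in the top 10% of WT peaks, 90 were missing (39, 11, 5, 5, 5, 7, 8, 40 and 1 in the same order). These lay near 115 genes, with 0% in chains and a neighbour difference of −0.90 points. With lists limited to the shortest length, 277 of 24206 were missing (100, 24, 19, 33, 12, 35, 25, 132 and 15), near 393 genes, with 0% in chains. Without shifted segments Q418R lacked 88 of 26361 strong sites. Chains made 0.367% at 50 kb and 5.38% at 250 kb, and neighbours within 10 kb differed by 10.0 points. Counting a skipped peak number as a peak, an alternative chosen after seeing the data, left 804 sites, and leaving out 1 mutant list left 639 to 813. The gene-end difference stayed between −20.9 and −15.1 points in all its alternatives, with p of 0.0039 to 0.016 in exact permutation tests. No paired analysis was possible because each list pools both replicates, and for the same reason no replicate could be left out. Depth, list length and replicate spread limit every count: a site missing from a list is one without a called peak, not one shown to be closed.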
